A study of Homo sapiens with 9 samples.

Results

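The RAS-ERK feedback and output genes are 10 transcripts that the kinase ERK is known to induce: DUSP4, DUSP5, DUSP6, SPRY2, SPRY4, SPRED2, ETV4, ETV5, PHLDA1 and TMEM158. They were picked by gene symbol from the table of normalized read counts, in which each symbol had 1 row, and they are 10 of its 63677 genes. All 10 were among the 17663 genes with a mean of at least 10 normalized counts over the libraries, which were the genes tested.

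Messenger RNA was measured in HCT116, a human colon carcinoma line labelled as wild type, collected 48 h after small interfering RNA (siRNA) had been introduced with a lipid reagent. There were 3 groups of 3 libraries. The siControl group received a control siRNA, the siRNF40 group an siRNA against RNF40, a subunit of the ligase that ubiquitinates histone H2B, and the siTG2 group one against TGM2, the gene of transglutaminase 2 (TG2). Every group was the same line grown in the same medium. A knockdown by siRNA in 1 line limits what the groups stand for, the siRNA sequences were not analysed here, and the labels do not tell whether replicates were separate cultures, so a p-value here gauges only the scatter among these libraries, which may be technical.

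Between 29161285 and 35743918 reads per library fell in genes, and 1 read was worth 0.88 to 1.10 normalized counts. RNF40 (log2 fold change -2.42, adjusted p = 5.3e-13) and TGM2 (-2.52, adjusted p = 1.1e-07) were lower in the libraries labelled with their siRNA. RNF40 was also called lower in siTG2 (-0.27, adjusted p = 0.019), a call that ended in 6 of 20 alternative analyses, and TGM2 in siRNF40 had a value of 0.54 (adjusted p = 0.063). Of 9 colon epithelial markers, 5 reached a mean of 10 (CDH1, KRT18, EPCAM, CDX2 and KRT8), while CDX1 and CEACAM5 were under 1 and VIL1 and KRT20 under 10. Of 6 fibroblast markers, COL1A1 and PDGFRB reached 10 and DCN and LUM were at 0 in every library. Summed, the fibroblast markers reached 822 to 997 counts in the siControl libraries, 1371 to 1705 in the siRNF40 libraries and 1016 to 1172 in the siTG2 libraries. Nearly all of that sum was COL1A1, at 909, 964 and 793 counts in siControl replicates 1, 2 and 3. It was at 1386, 1339 and 1663 in siRNF40 and 1039, 1141 and 969 in siTG2, while PDGFRB had a mean of 31.1. No leukocyte or red cell marker of 6 reached a mean of 10, and CD3E was at 0 throughout. Together they summed to 13.3 to 18.6 counts in siControl libraries, 12.0 to 19.2 in siRNF40 libraries and 29.3 to 56.5 in siTG2 libraries. The epithelial markers summed to 60140.4 to 65368 counts in siControl libraries, 93746 to 109404 in siRNF40 libraries and 55953 to 65939 in siTG2 libraries. KRT8 and KRT18 made up most of that sum. In siRNF40 KRT8 (0.88), KRT18 (0.58), CDH1 (0.48) and EPCAM (0.16) were called higher and CDX2 (0.057) was not. In siTG2 CDH1 (-0.30, adjusted p = 0.00061) and EPCAM (-0.31, adjusted p = 0.00032) were called lower, and KRT8, KRT18 and CDX2 were not called. The siTG2 libraries also stood apart in having 27123 to 27602 genes with a read, against 25162 to 25548 in the others, and normalized totals of 28807600 to 29454800, against 32122900 to 33219600. The part of these shifts in the results below was not tested.

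The RAS-ERK pathway carries signals from growth factor receptors through RAS, the RAF and MEK kinases and ERK to the nucleus. ERK switches on genes that restrain it in turn: dual-specificity phosphatases (DUSPs) that remove the activating phosphates from ERK, and Sprouty and SPRED proteins that act at the level of RAS and RAF. It also switches on ETS transcription factors of the PEA3 group, ETV4 and ETV5, and other output genes such as PHLDA1 and TMEM158. Because several of these transcripts follow ERK activity closely in many cells, they are often read together as a measure of pathway output.

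In siRNF40, 5 of the 10 genes fell (DUSP5, DUSP6, SPRED2, ETV5 and PHLDA1) and none rose, by limma with a Benjamini-Hochberg adjusted p under 0.05 over all genes tested, which is what "called" means throughout. Of all genes tested, 23.6% were called lower and 21.7% higher. In siTG2, 6 fell (DUSP4, DUSP5, SPRED2, ETV5, PHLDA1 and TMEM158) and SPRY4 rose, where 18.5% of all genes were called lower and 12.8% higher. Of these 6 falls, those of SPRED2, ETV5 and PHLDA1 were small and 3 falls remained under each of quantile normalization, equal totals, and the omission of siControl replicate 1, siControl replicate 2 or siTG2 replicate 1. The shares called lower lie below the members' 5 and 6 of 10, and the shares called higher lie above their 0 and 1 of 10, but the members were chosen with earlier results of these data known. The median log2 fold change of the members was -0.24 in siRNF40 and -0.19 in siTG2, and that of all genes tested was 0.016 and -0.0069. The members' median in siTG2 depended on scaling: it was -0.037 under quantile normalization, where that of all genes was 0.0040, and -0.048 with all libraries set to equal totals, where that of all genes was 0.13. Both knockdowns were set against the same siControl libraries. In bulk RNA, fewer cells of a type and less RNA per cell cannot be told apart.

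Set directly against siTG2, siRNF40 had higher DUSP4, DUSP5 and TMEM158 and lower DUSP6, SPRY4, SPRED2, ETV5 and PHLDA1. That is 3 members called higher and 5 lower, where 26.6% of all genes were called in each direction. Libraries of the compared groups did not overlap for 5 members in siRNF40 against siControl (53.2% of all genes), 8 in siTG2 against siControl (46.5%) and 9 in siRNF40 against siTG2 (58.3%). The plot of values by library shows every measurement behind these counts.

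**Figure D1:**
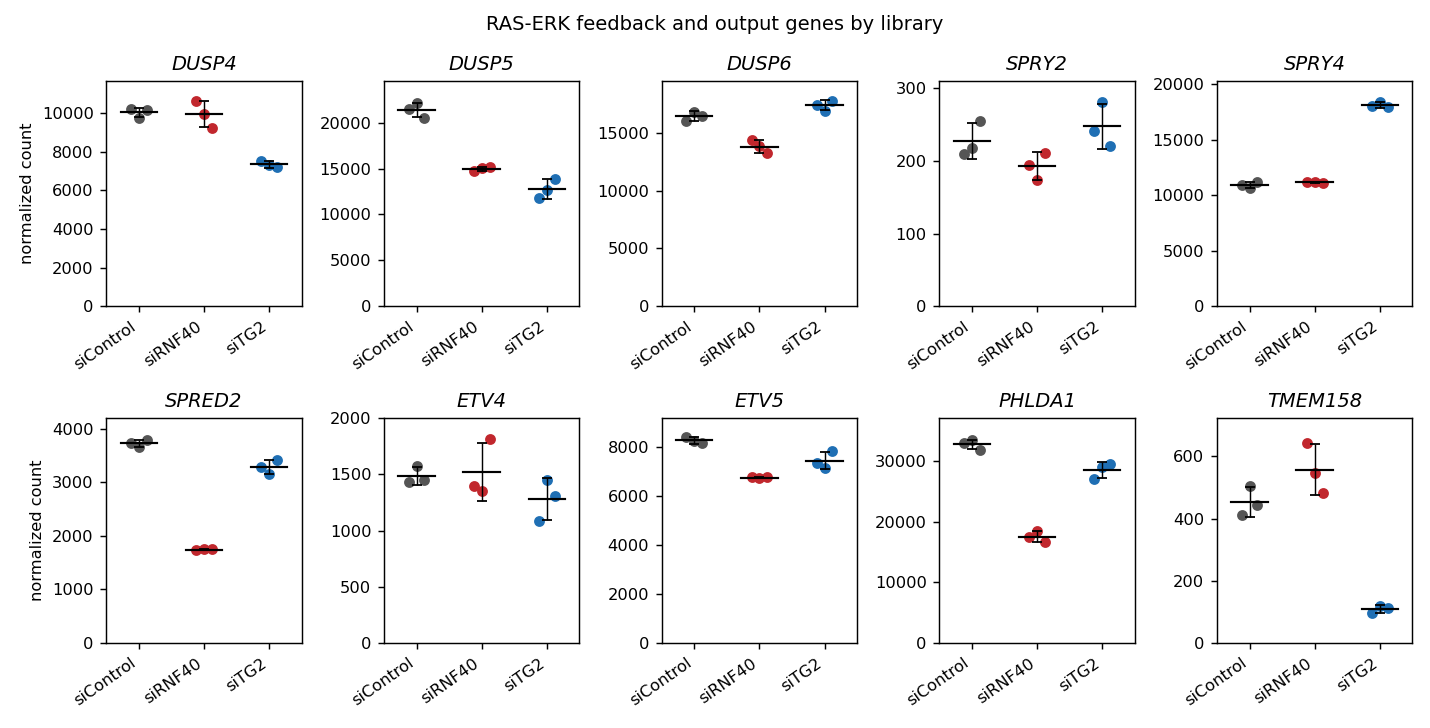
Normalized read counts (vertical axis, from 0) of the 10 genes in the 3 groups; points are libraries, long bars group means and error bars the SD over 3 libraries. SPRED2 and PHLDA1 are lowest in siRNF40, DUSP4 and TMEM158 are lowest in siTG2, SPRY4 is highest in siTG2, and DUSP5 lies below siControl in both knockdowns.

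Some of the members that fell in siRNF40 share a short stretch of sequence, printed here because it divides the members. The 7-base word GTCTTCA, which an earlier analysis of these same data had picked as the one most tied to lower genes in siRNF40, stands in the 3' untranslated region (UTR) of DUSP5, PHLDA1, DUSP6 and SPRED2. The 5 sites follow in the sense of the mRNA, 5' to 3', with the word in capitals and 10 bases on each side, from the GENCODE 29 transcripts on build GRCh38.
DUSP5: cctggaggttGTCTTCAagctgtggac
PHLDA1: catttctattGTCTTCActtggatcaa
DUSP6: ctatataattGTCTTCAatgaagacta
SPRED2 first site: caggacaccaGTCTTCAaggaaaggga
SPRED2 second site: gttagtagacGTCTTCAttcattggag
The DUSP5 site lies at chr10:110511326-110511352 on the plus strand. The other sites are on minus strands, at chr12:76030035-76030061 in PHLDA1, chr12:89348855-89348881 in DUSP6, and chr2:65311882-65311908 and chr2:65311717-65311743 in SPRED2. The flanking bases differ from site to site.

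With the word in the 3' UTR, 4 members had a median log2 fold change of -0.71 in siRNF40, and the 6 without it had 0.0039. ETV5 was the member that fell without the word, and none of the 5 members that were not called held it in the 3' UTR. Over 13047 protein-coding genes searched, 12.9% held the word in the 3' UTR. Their median was -0.36, against 0.018 for genes without it, and 53.8% were called lower, against 25.4%. Long 3' UTRs hold any word more often, and the members' ranged from 659 bases in TMEM158 to 4672 in PHLDA1. Within 3' UTRs of 1000 to 5000 bases, 18.1% of genes held the word, with medians of -0.41 with it and -0.038 without it. DUSP4, with a 3' UTR of 3962 bases, held no copy there but 1 elsewhere in its transcript, and it was not called. In siTG2 the genes with this word had a median of -0.0055 and those without it -0.031. RNF40, the siRNA target, holds the word at 3 places in its transcript, 1 of them in the 3' UTR. The TGM2 transcript holds no copy. The siRNA sequences were not compared with the word. Because the word was picked from this comparison, these values describe it and do not test it, and its part in the members' fall was not tested.

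**Figure D2:**
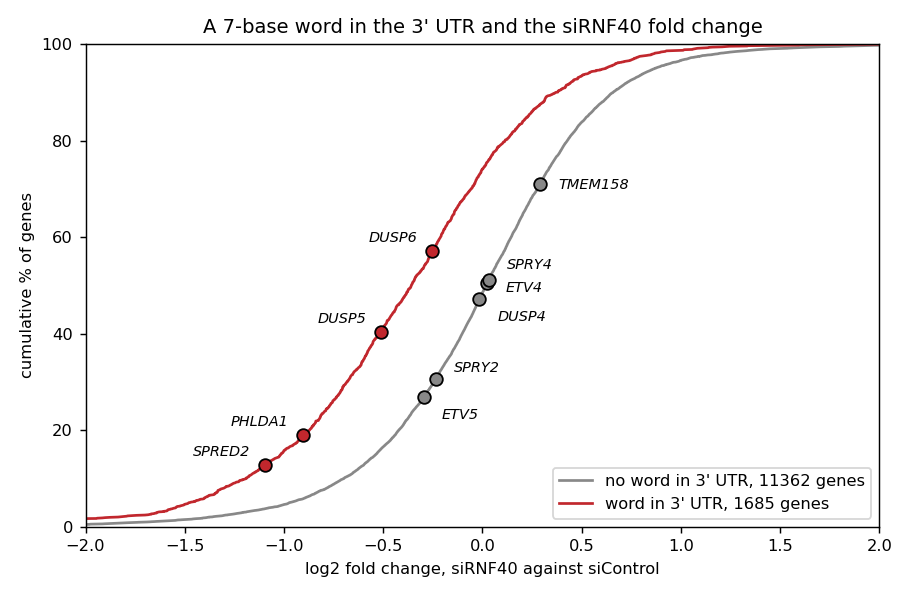
Cumulative percentage of genes (vertical axis) by log2 fold change in siRNF40 against siControl (horizontal axis), for 1685 genes with the word in the 3' UTR (red) and 11362 without it (grey); circles mark the 10 members on their own curve. The red curve lies to the left of the grey one, and the 4 members with the word, SPRED2, PHLDA1, DUSP5 and DUSP6, lie between -1.10 and -0.25.

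The word most tied to lower genes in siTG2, GCGCCCT, was likewise picked from these data, and no member's 3' UTR contained it. Elsewhere in the transcript PHLDA1 held 1 copy and SPRED2 held 2. Of the siRNA targets, TGM2 held 1 copy and RNF40 held 2, all outside the 3' UTR. GCGCCCT was found in the 3' UTR of 2.86% of protein-coding genes, and 41.0% of those were called lower in siTG2, against 22.5% of the others. TMEM158, the member that fell most in siTG2, held neither word in its transcript.

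Among the ERK phosphatases, DUSP5 fell in both knockdowns, DUSP6 in siRNF40 and DUSP4 in siTG2. DUSP5 is a nuclear phosphatase that dephosphorylates ERK and holds it in the nucleus. Its gene (ENSG00000138166) spans 112257596 to 112271302 on the plus strand of chromosome 10 in build hg19, the build of all gene positions below. Normalized counts of DUSP5 were 21460.5, 22159 and 20545 in siControl replicates 1, 2 and 3. They were 14755, 15055 and 15116 in siRNF40 and 11756, 12712 and 13835 in siTG2. The 3 groups did not overlap, with siControl highest and siTG2 lowest. The siRNF40 mean was 70.0% of control, a log2 fold change of -0.51 (SE 0.063, adjusted p = 2.1e-06). In siTG2 it was 59.7% of control, a log2 fold change of -0.75 (SE 0.063, adjusted p = 4.2e-08). The direct contrast of siRNF40 with siTG2 gave 0.23 (adjusted p = 0.0042). That last call depended on scaling: it was 0.057 with all libraries set to equal totals (adjusted p = 0.45) and -0.014 under quantile normalization (adjusted p = 0.87).

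DUSP6 is the cytoplasmic phosphatase most specific for ERK. It lies on chromosome 12 (89741009 to 89747048, minus strand, ENSG00000139318). Its counts were 16060.3, 16866 and 16477 in siControl, 14362, 13860.5 and 13237 in siRNF40, and 17432, 16946 and 17815 in siTG2. All siRNF40 libraries lay below siControl, and all siTG2 libraries lay above it, the lowest by a small margin. In siRNF40 DUSP6 fell to 83.9% of control (log2 fold change -0.25, SE 0.056, adjusted p = 0.0011). The siTG2 value of 0.079 was not called (95% interval -0.039 to 0.20, adjusted p = 0.31), but it was called higher under quantile normalization (0.33, adjusted p = 7.7e-05) and with equal totals (0.22, adjusted p = 0.0046). Under equal totals the median of all genes in siTG2 stood at 0.13, and the DUSP6 value is to be read against it. DUSP6 was lower in siRNF40 than in siTG2 by the direct contrast (-0.33, adjusted p = 5.8e-05).

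DUSP4, a nuclear phosphatase of ERK and other MAP kinases, lies on chromosome 8 (29190581 to 29208185, minus strand, ENSG00000120875). Counts of DUSP4 were 10196, 9751 and 10135 in siControl, 10606, 9957 and 9242 in siRNF40, and 7519, 7325 and 7181 in siTG2. The siRNF40 libraries lay on both sides of the controls, and the siTG2 libraries were below every other library. In siRNF40 its log2 fold change was -0.015, with a 95% interval of -0.14 to 0.11 (adjusted p = 0.86). In siTG2 DUSP4 fell to 73.2% of control (log2 fold change -0.45, SE 0.061, adjusted p = 1.7e-05). The difference between the knockdowns was 0.43 (adjusted p = 7.5e-06).

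The Sprouty and SPRED inhibitors went different ways: SPRED2 fell most of all members in siRNF40, SPRY4 rose in siTG2, and SPRY2 was called in no contrast. SPRED2 is a membrane protein that recruits neurofibromin, which switches RAS off. The gene lies on chromosome 2 (65537985 to 65659771, minus strand, ENSG00000198369). SPRED2 counts were 3741, 3658 and 3785 in siControl and 1727, 1746 and 1761 in siRNF40. In siTG2 they were 3286, 3154 and 3424. The siRNF40 libraries clustered tightly, far below both other groups, and the siTG2 libraries lay a little below the controls. SPRED2 fell to 46.8% of control in siRNF40 (log2 fold change -1.10, SE 0.065, adjusted p = 1.8e-10), and 90.9% of genes tested had a smaller absolute change. Its siTG2 change of -0.18 was called (adjusted p = 0.039), but the call ended in 10 of 20 alternatives (adjusted p from 0.021 to 0.69 over all of them). Among those were both rescalings, which moved it to -0.050 (quantile) and -0.039 (equal totals). The omission of siControl replicate 1 (adjusted p = 0.11), 2 (0.074) or 3 (0.12) or of siTG2 replicate 1 (0.085) or 2 (0.13) ended it too. The direct contrast gave -0.91 (adjusted p = 9.7e-10).

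SPRY4 is a Sprouty protein that blocks RAS activation downstream of receptors. It lies on chromosome 5 (141689992 to 141706020, minus strand, ENSG00000187678). SPRY4 counts were 10946, 10670.2 and 11233 in siControl, 11221, 11185 and 11146 in siRNF40, and 18038, 18405 and 17939 in siTG2. The siRNF40 libraries fell within the control range, and the siTG2 libraries stood well above all others. In siTG2 SPRY4 was 1.66-fold its control level (log2 fold change 0.73, SE 0.054, adjusted p = 7.5e-09), and the value was 0.71 to 0.98 over the alternatives. In siRNF40 it was 0.031 (95% interval -0.082 to 0.14, adjusted p = 0.68). The contrast of siRNF40 with siTG2 was -0.70 (adjusted p = 3.1e-09). An antisense gene on the other strand, AC005592.2, held a mean of 282 counts, 2.10% of the SPRY4 mean.

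SPRY2, a close relative of SPRY4, was the member with the fewest counts in siControl. It lies on chromosome 13 from 80910111 to 80915086 on the minus strand (ENSG00000136158). Its counts were 209.8, 217 and 255 in siControl, 194, 174 and 211 in siRNF40, and 241, 282 and 219.9 in siTG2. Each knockdown overlapped the controls, while the siRNF40 libraries all lay below the siTG2 libraries. The log2 fold change was -0.24 in siRNF40 (SE 0.16, 95% interval -0.57 to 0.099, adjusted p = 0.25) and 0.12 in siTG2 (95% interval -0.21 to 0.45, adjusted p = 0.61). The direct contrast was -0.35 (adjusted p = 0.069), and it was called with equal totals (-0.53, adjusted p = 0.0089) and with edgeR on TMM-scaled reads (-0.39, adjusted p = 0.044). The SPRY2 interval in siRNF40 is wide enough to hold both no change and the DUSP6 value of -0.25.

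**Figure D3:**
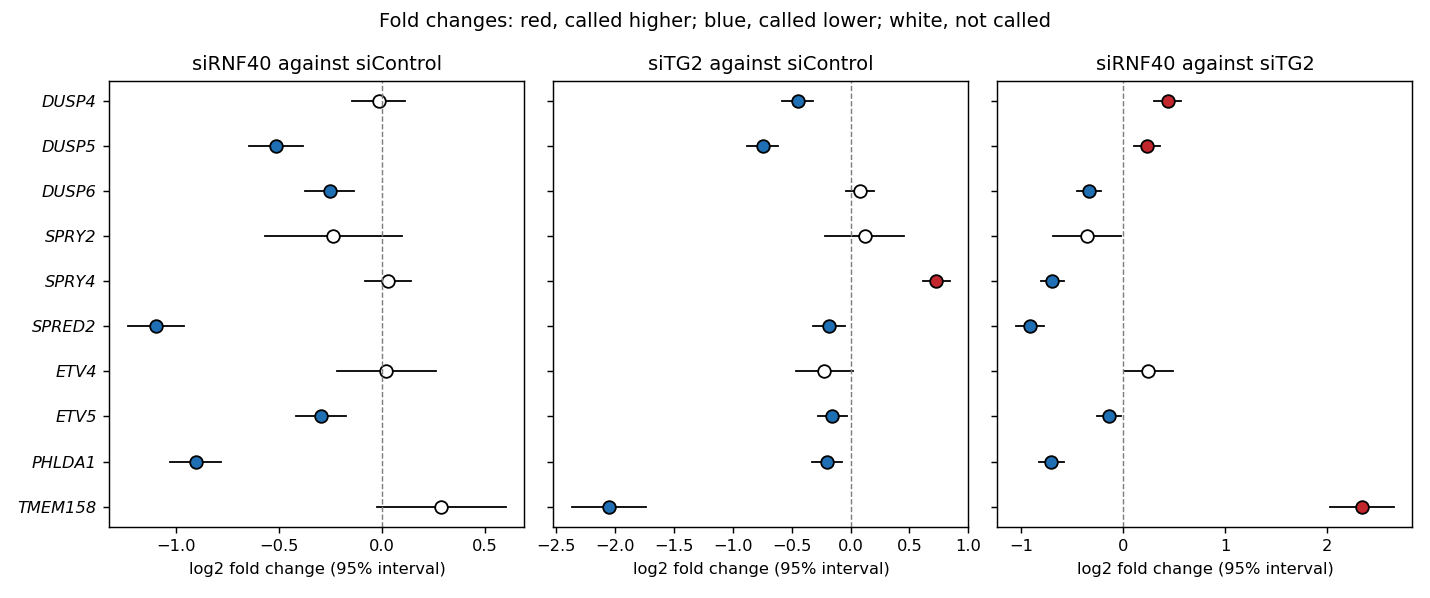
Log2 fold changes (horizontal axis) of the 10 genes in the 3 contrasts; lines are 95% intervals from limma, red marks genes called higher, blue lower and white not called. SPRED2 and PHLDA1 have the lowest values in siRNF40, and TMEM158 has the lowest and SPRY4 the highest in siTG2.

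Of the ETS factors, ETV5 fell in both knockdowns, by a small step in siTG2, and ETV4 was called in neither. ETV5 lies on chromosome 3 (185764097 to 185828107, minus strand, ENSG00000244405). Counts of ETV5 were 8414, 8236 and 8142 in siControl, 6743, 6703 and 6749.9 in siRNF40, and 7349.5, 7118 and 7814 in siTG2. The groups did not overlap, with siTG2 between the other two. In siRNF40 ETV5 fell to 81.5% of control (log2 fold change -0.30, SE 0.058, adjusted p = 0.00036). The siTG2 value was -0.15 (SE 0.058, adjusted p = 0.049), just inside the threshold. It was called in 8 of 20 alternatives, was 0.045 under quantile normalization (adjusted p = 0.59) and -0.012 with equal totals (adjusted p = 0.90), and lost its call without any 1 of the siControl libraries, without siTG2 replicate 1 or 2 and without siRNF40 replicate 1, with adjusted p = 0.053 to 0.16. The direct contrast of -0.14 (adjusted p = 0.049) was equally close, and was called in 9 of 20 alternatives.

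ETV4 shares most of its targets with ETV5. It lies on chromosome 17 (41605212 to 41656988, minus strand, ENSG00000175832). ETV4 counts were 1430.1, 1575 and 1446 in siControl, 1393, 1348.5 and 1819.8 in siRNF40, and 1082.5, 1451 and 1307 in siTG2. The groups overlapped in all contrasts, and siRNF40 replicate 3 was the highest library. Its log2 fold change was 0.023 in siRNF40 (95% interval -0.22 to 0.26, adjusted p = 0.89) and -0.22 in siTG2 (95% interval -0.46 to 0.017, adjusted p = 0.15). The difference of 0.25 between the knockdowns was not called (adjusted p = 0.079), but it was without siRNF40 replicate 2 (0.33, adjusted p = 0.037) or siTG2 replicate 2 (0.34, adjusted p = 0.022). DHX8, a gene on the opposite strand that overlaps ETV4, had a mean of 1834 counts, 128% of the ETV4 mean, and whether reads were counted by strand is not given in the sources used here. Without strand, reads of the overlapping stretch cannot be told apart.

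PHLDA1 and TMEM158, counted as output genes rather than brakes, each had a large fall, PHLDA1 in siRNF40 and TMEM158 in siTG2. PHLDA1 encodes a pleckstrin homology-like protein linked to receptor signalling and apoptosis, on chromosome 12 (76419227 to 76427712, minus strand, ENSG00000139289). Its counts were 32944.5, 33391 and 31845 in siControl, 17486, 18437 and 16573 in siRNF40, and 27026, 29039 and 29493 in siTG2. The siRNF40 libraries lay far below the rest, with siTG2 between them and the controls. PHLDA1 fell to 53.5% of control in siRNF40 (log2 fold change -0.90, SE 0.060, adjusted p = 7e-10). In siTG2 the change was -0.20 (SE 0.060, adjusted p = 0.015), and 5 of 20 alternatives ended the call. They were quantile normalization (-0.024, adjusted p = 0.77), equal totals (-0.056, adjusted p = 0.49), and the omission of siControl replicate 1 (adjusted p = 0.062), siControl replicate 2 (0.068) or siTG2 replicate 1 (0.075). Directly compared, PHLDA1 was lower in siRNF40 than in siTG2 (log2 fold change -0.71, adjusted p = 1.1e-08).

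TMEM158, also named RIS1, encodes a membrane protein known for its induction by RAS in senescence. The gene lies on chromosome 3 (45265958 to 45267770, minus strand, ENSG00000249992). TMEM158 counts were 411, 505 and 445 in siControl, 644, 546 and 481 in siRNF40, and 95.2, 118 and 113 in siTG2. The siTG2 libraries stood below all others, and the siRNF40 libraries overlapped the upper controls. In siTG2 it fell to 24.0% of control (log2 fold change -2.05, SE 0.15, adjusted p = 5.6e-09), and 99.2% of genes tested had a smaller absolute change. In siRNF40 it was 0.29 (95% interval -0.022 to 0.60, adjusted p = 0.12). The contrast of siRNF40 with siTG2 was 2.34 (adjusted p = 2.2e-10). At least 101 reads stood behind each library's value of every member, and this lowest figure was that of TMEM158.

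The calls of DUSP5, DUSP6, SPRED2, ETV5 and PHLDA1 in siRNF40 held in all 20 alternatives, as did those of DUSP4, DUSP5, SPRY4 and TMEM158 in siTG2. The 3 small siTG2 changes, of SPRED2, ETV5 and PHLDA1, did not. Scaling bears on siTG2 as a whole: with equal totals, 3872 genes were called higher and 1890 lower, in place of 2263 and 3270, and the median of all genes moved to 0.13, while that of siRNF40 against siTG2 moved to -0.19. Members called in siTG2 were then 2 higher and 3 lower. In the authors' deposited table for siRNF40, 0 members were higher and 5 lower, and in the authors' deposited table for siTG2, 1 was higher and 6 were lower, at the same threshold.

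**Figure D4:**
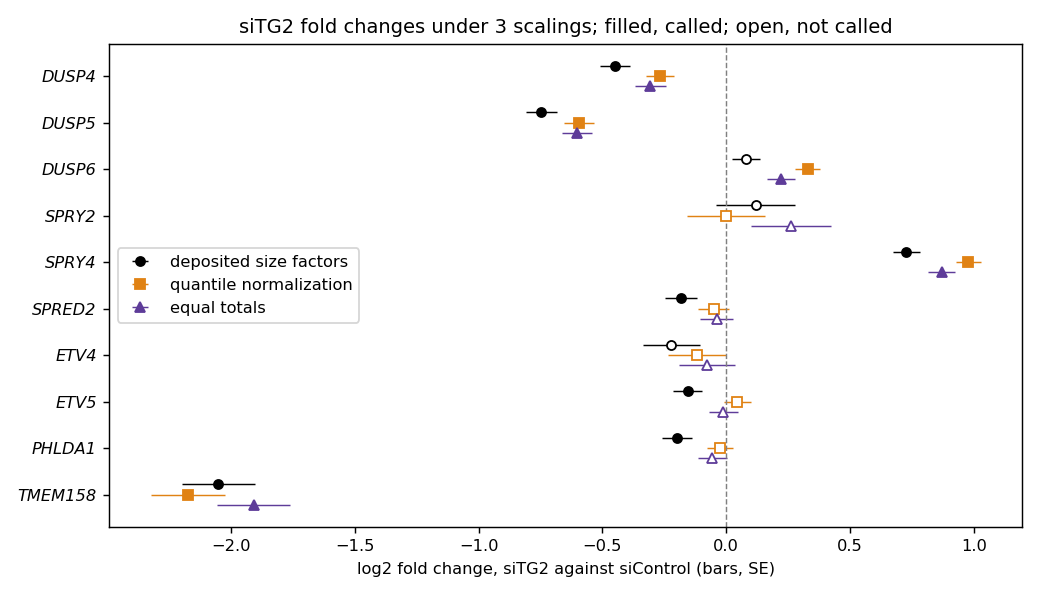
Log2 fold changes in siTG2 against siControl (horizontal axis; bars, SE) of the 10 genes with the deposited size factors (black), quantile normalization (orange) and equal totals (purple); filled symbols are called. DUSP4, DUSP5, SPRY4 and TMEM158 are called on all 3 scales, while SPRED2, ETV5 and PHLDA1 are called only with the deposited size factors and DUSP6 only with the other scales.

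Levels per kilobase of merged exons allow members to be set against each other. In siControl the highest was DUSP5, at 8179 ± 309.5 normalized counts per kilobase (SD, n = 3), followed by PHLDA1 (4056 ± 98.6), DUSP6 (3555 ± 86.9) and SPRY4 (1668 ± 42.9). ETV5 (1424 ± 23.8) and DUSP4 (1382 ± 33.3) came next, and their libraries overlapped, at 1403 to 1450.2 and 1344 to 1405. Below them were SPRED2 (723 ± 12.6), ETV4 (411 ± 22.1), TMEM158 (250.2 ± 26.3) and SPRY2 (74.9 ± 8.0). PHLDA1 stood behind DUSP6 in both knockdowns, at 2169 against 2984 in siRNF40 and 3534 against 3756 in siTG2. In siRNF40 DUSP4 (1369) also stood above ETV5 (1160.3) and ETV4 (422) above SPRED2 (338.5), and in siTG2 TMEM158 was the lowest, behind SPRY2 (81.5). DUSP5 led in every group on this scale. The order rests on the length chosen, since merged exons join all annotated transcripts of a gene. For SPRY4 they come to 6.565 kb, while the transcript searched for the words has 2379 bases. For DUSP5 the lengths are 2.615 kb and 2557 bases. SPRY4 would therefore stand higher by transcript length, and the order given here was worked out for merged exons only.

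Other parts of the pathway were read from 4 lists of genes. Their counts are to be read against all genes tested, of which 23.6% were called lower and 21.7% higher in siRNF40 and 18.5% and 12.8% in siTG2. With equal totals the siTG2 calls over all genes turned from mostly lower to mostly higher (67.2% of calls), and the lists' counts moved the same way. GTCTTCA stands in the 3' UTR of 3 of 22 core cascade genes searched, 5 of 21 other brakes, 3 of 18 ERK-regulated genes and 1 of 25 other output genes. In siRNF40 their medians were -0.24, -0.16, -0.38 and 0.79, against -0.031, 0.11, 0.070 and -0.11 without it. KSR1, DUSP16, ERRFI1, NF1 and SPRED3 hold it there and were not called in siRNF40. The core cascade, from the adaptors and RAS through RAF and MEK to ERK, had 10 of 22 genes lower and 6 higher in siRNF40 (median -0.18). NRAS, a RAS GTPase, fell from 6409 to 1818 counts (log2 fold change -1.82, adjusted p = 1.1e-12), and it holds GTCTTCA at 2 places in its 3' UTR. SHOC2, a scaffold that helps to activate RAF, fell (-0.90, adjusted p = 4.9e-09), and GAB2, a docking adaptor, rose (0.86, adjusted p = 1.1e-05). GAB1 (-0.27) and MRAS (0.18) were not called. In siTG2 the cascade had 9 genes lower and 3 higher (median -0.14), or 6 and 4 with equal totals (median 0.00042, and -0.012 under quantile normalization). MAPK3, which encodes ERK1, fell there from 945 to 376 counts (-1.33, adjusted p = 1.8e-08). It holds GCGCCCT, the word picked for siTG2, at 1 place in its 3' UTR, and the part of that word was not tested. RRAS, a RAS-related GTPase, fell (-0.57, adjusted p = 0.00036) and GAB2 rose (0.49, adjusted p = 0.0044), while KSR1 (0.20) and SOS1 (-0.17) were not called.

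Of the brakes other than the members, 9 of 22 were higher and 3 lower in siRNF40 (median 0.021), or 7 and 4 with equal totals. DUSP2, a nuclear phosphatase of ERK, rose from 110.4 to 243 counts (1.13, adjusted p = 0.00026). DUSP14, another dual-specificity phosphatase, rose (1.06, adjusted p = 2.6e-08), and so did SPRY1 (0.90, adjusted p = 0.0016). SPRED1, the close relative of SPRED2, went the other way and fell (-0.68, adjusted p = 2.4e-06), and the phosphatases DUSP7 (-0.091), DUSP10 (0.032) and DUSP16 (0.056) were not called, all 4 being named after their values were seen. RASAL2 (-0.25) and RASA2 (-0.21) were not called. In siTG2 the brakes had 5 higher and 4 lower (median 0.13), or 10 and 2 with equal totals (median 0.28). ERRFI1, an inhibitor of the epidermal growth factor receptor, fell (-0.65, adjusted p = 2e-07), and DUSP1 fell (-0.63, adjusted p = 0.00032). SPRED3 rose (0.89, adjusted p = 0.041), a call that ended in 7 of 20 alternatives, and SPRY1 (0.33) and DUSP2 (-0.24) were not called.

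Kinases and transcription factors that ERK regulates had 6 of 18 higher and 5 lower in siRNF40 (median 0.017). RPS6KA1, the kinase RSK1, rose (0.69, adjusted p = 2.2e-06), as did the transcription factor SRF (0.60, adjusted p = 3.9e-06), and the ETS repressor ETV3 fell (-0.58, adjusted p = 9.9e-06). ELK1 (0.20) and RPS6KA2 (-0.11) were not called. In siTG2, 6 were lower and 2 higher (median 0.025), or 5 and 7 with equal totals (median 0.17). ETS factors led the falls: ELK3 went from 4018 to 1611 counts (-1.32, adjusted p = 1.6e-10), ETS1 fell by 0.91 on the log2 scale (adjusted p = 2.9e-07) and ETS2 by 0.69 (adjusted p = 3.3e-07). Other ETS factors of the list went different ways. ELK1 also fell (-0.58, adjusted p = 2.2e-05), ETV6 rose (0.30, adjusted p = 0.015), and ERF (-0.024) and ETV3 (0.042) were not called. RPS6KA2 (0.22) and ELK4 (0.15) were not called.

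Further output genes of the pathway fell in 14 of 25 cases and rose in 3 in siTG2 (median -0.33), or 11 and 5 with equal totals (median -0.19). EMP1, an epithelial membrane protein, fell from 4574 to 1608.5 counts (-1.51, adjusted p = 1e-11), and FOSL1, a FOS-family factor, from 8052 to 2919 (-1.46, adjusted p = 5.2e-11). HMGA2, a chromatin protein, rose (1.37, adjusted p = 1e-11), and LZTS1 (-0.45) and TRIB2 (0.22) were not called. The 3' UTRs of FOSL1, LIF and LZTS1 hold GCGCCCT, and LIF was called lower (-0.81, adjusted p = 2e-08). The part of that word was not tested. In siRNF40, 11 fell and 7 rose (median 0.065). PROS1, which encodes protein S, fell (-1.46, adjusted p = 1.8e-07). EMP1, which holds GTCTTCA in its 3' UTR, rose (0.79, adjusted p = 6e-09), as did SPHK1, a sphingosine kinase (0.80, adjusted p = 0.0084; highest adjusted p over the alternatives 0.062). S100A6 (-0.30) and EPHA4 (0.16) were not called. EMP1 was thus called in opposite directions in the knockdowns, which share their controls. So were MYC, EPHA2, MAP2K3 and CCND1, higher in siRNF40 and lower in siTG2. HMGA2 (-0.59 in siRNF40) and PROS1 (0.71 in siTG2) were called the opposite way. In both knockdowns PLAUR, SERPINB1, SLCO4A1, VGF and FOSL1 were called lower and SPHK1 higher.

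**Figure D5:**
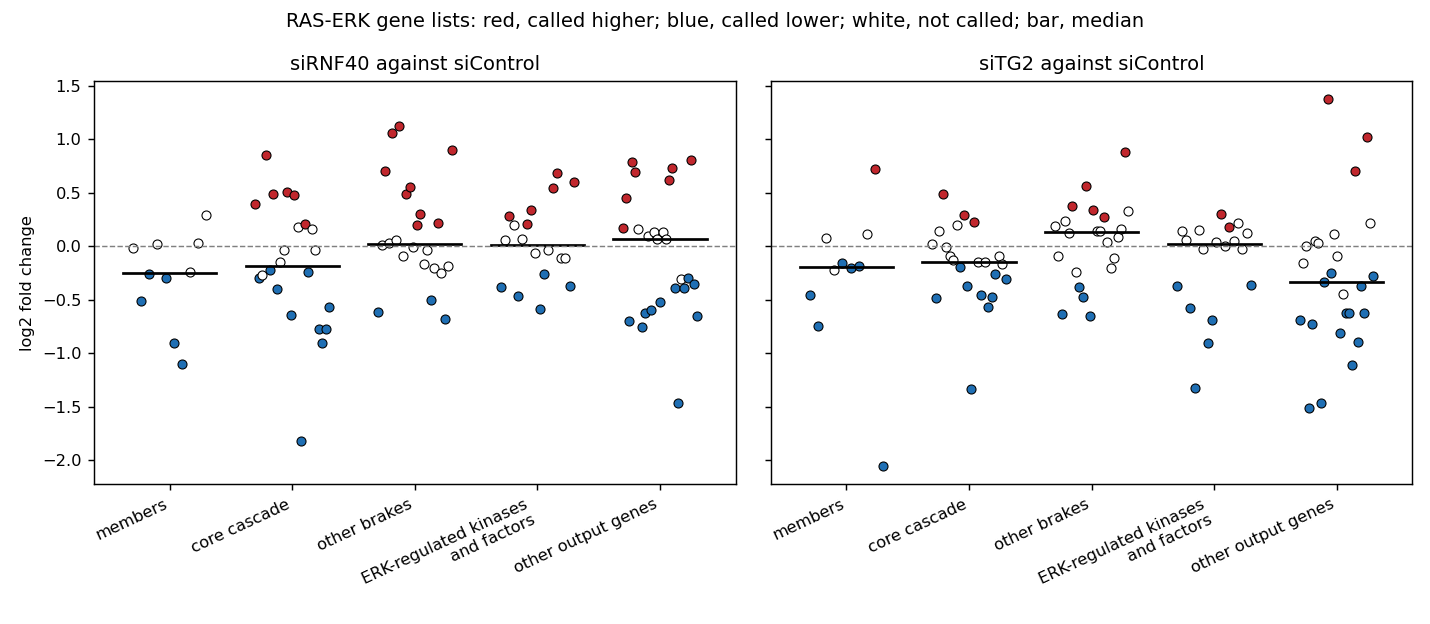
Log2 fold changes (vertical axis) of the 10 members and of 4 further lists of pathway genes in siRNF40 (left) and siTG2 (right) against siControl; each point is a gene, red if called higher, blue if lower and white if not called, and bars are medians. With the deposited size factors, the members have a median of -0.24 and -0.19, the other brakes of 0.021 and 0.13, and the other output genes of 0.065 and -0.33; with equal totals the siTG2 medians are -0.048, 0.28 and -0.19, beside 0.13 for all genes.

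Genes whose pattern over the 9 libraries was most like that of a member were sought among 11494 genes, by the root mean square difference of log2 values after each gene's siControl mean was subtracted. Nearest to DUSP6 was COX11, a mitochondrial assembly factor, with a difference of 0.039, and nearest to DUSP5 was FGFRL1, a fibroblast growth factor receptor-like protein, with 0.067. SPRED2 was matched by ZNF592 (0.044), PHLDA1 by RTCA (0.045) and ETV5 by VPS52 (0.046). No member was among the 3 nearest genes of another. With only 3 of 11494 genes kept per member, that absence does not tell whether the members share a broader pattern.

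RefSeq promoter windows of GRCh38.p14, from 250 bases before to 50 after a gene start, were at hand for 6 of the 10 members, as 9 windows. They were searched on both strands for TGAATGAA and TGAATGGA, which CIC binds, TGANTCA (AP-1), TGACGTCA (CREB), CCGGAAGT (ETS) and the CArG box of SRF. These stand in 1.65%, 1.03%, 7.71%, 1.85%, 4.14% and 1.29% of 35116 windows. Among the members, 1 SPRED2 window, at chr2:65366729-65367028, held TGANTCA, as TGACTCA at position -6 and as TGAATCA at 34 from the start. The other windows held none of these words. The N stands for any base, so the search for TGANTCA was wider than the AP-1 site.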

How the data were processed

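Polyadenylated RNA of 9 libraries was analysed. Per the submitters' processing notes, the authors used Trim Galore 0.4.1, STAR 2.7.0, HTSeq 0.12.4 and DESeq2. Those notes name hg19 as well as hg38; gene positions in the table are hg19. The deposited signal is a read count per gene divided by a size factor per library. All values (100%) lay within 0.001 reads of a whole read, so reads were recovered for count tests. Columns named NC were taken as siControl because their means equal the siNC means of the authors' comparisons. The authors also deposited log2 fold changes, a test score and p-values from DESeq2, which served for counts of members only.

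The main test was limma 3.58.1 (R 4.3.3) with an intensity trend on log2(value + 1), a pseudocount of 1, over 17663 genes with a mean of at least 10. A fit over all 9 libraries gave 3 group means. Tests were two-sided, called at an adjusted p under 0.05, and fold changes on this scale understate those of low genes. The script was tested on simulated data. Alternatives numbered 20: pseudocounts of 10 and 0.5, no filter, a mean of at least 50, quantile normalization, equal totals, the 6 libraries compared, a replicate block, edgeR 4.0.16 (TMM, RLE), DESeq2 1.42.0, and omission of each library.

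The members, lists and words were chosen with earlier results of these data known. All members are named. From each list, up to 3 called genes of largest absolute change (mean 50 or more) and up to 2 uncalled ones are named per knockdown. Further list genes are named outside this rule, with their values known. The nearest genes by pattern had a mean of at least 100 normalized counts. Of 110 list entries, 109 were matched by symbol. Replicates differed by 5.26 to 23.3 times the counting variance, so none was a repeat of another. Transcripts were those of GENCODE 29, 1 per gene, and background genes had 3' UTRs of 50 bases or more.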

Additional observations from a re-analysis of the deposited data

How the results depend on the processing

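In siRNF40, 5 members were lower and 0 higher under all 20 alternatives. In siTG2, 2 members were higher and 3 lower with quantile normalization and with equal totals, against 1 and 6, and over omissions of 1 library the lower count ranged from 3 to 6, at 3 without siControl replicate 1, siControl replicate 2 or siTG2 replicate 1. Over all genes, equal totals gave 3872 higher and 1890 lower in siTG2, against 2263 and 3270. In siRNF40 against siTG2, omissions gave 3 to 4 members higher and 4 to 5 lower. Under quantile normalization 2 values changed sign: ETV5 in siTG2 (0.045) and DUSP5 in siRNF40 against siTG2 (-0.014). The cause was not tested.

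Replicate numbers did not pair the libraries: deviations of same-numbered libraries correlated at -0.075 to 0.081, no pair of 9 was over 0.1, and a library was closest to its own number in 7 of 18 comparisons. With a replicate block, SPRED2 (-0.18, adjusted p = 0.069) and ETV5 (-0.15, adjusted p = 0.087) in siTG2 and ETV5 in siRNF40 against siTG2 (-0.14, adjusted p = 0.082) were not called, leaving 4 members lower in each of these contrasts. The block changed no other member's call.

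Depth limits SPRY2 and TMEM158 most, the members with the fewest reads.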
